A study of Mus musculus with 22 samples.

Results

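The CD45-positive cells of EMT6 mammary tumours were compared between mice given the BET bromodomain inhibitor JQ1 and mice given vehicle. EMT6 is a mammary carcinoma line of the BALB/c strain, and CD45 is a protein that all nucleated blood cells carry, so beads against it enrich leukocytes from a dissociated tumour. The series measured messenger RNA in the CD45-positive and CD45-negative cells of such tumours, 22 libraries in all. A gene entered the comparison if 2 or more libraries of the CD45-positive table reached 1 FPKM, which left 10340 of the 24353 genes listed. FPKM is the number of sequenced fragments per length of transcript and size of the library, a level that can be set side by side between genes.

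Each group held 2 CD45-positive libraries. All mice were wild-type BALB/c, 5 to 6 weeks old when injected with 200000 EMT6 cells, in the inguinal mammary fat pads of either side. Treatment began once tumours could be felt. The JQ1 group took the drug by gavage every day at 50 mg/kg. The vehicle group is labelled only as vehicle. In the other 3 groups, which served to set values side by side, mice had the same JQ1 dose with an antibody against PD-L1, with paclitaxel, or with both (the 3-drug group), each of these at 10 mg/kg in 2 injections a week. Both vehicle libraries carry 1 mouse code in their names and both JQ1 libraries another, each with the letters R (replicate 1) and L (replicate 2), read here as the right and left tumour. The 2 anti-PD-L1 libraries also share a code, while the 2 libraries of the paclitaxel group and those of the 3-drug group carry different codes. No label explains these codes. If a code is 1 animal, animal and treatment cannot be told apart here. The spread behind the p-values then mixes tumours of 1 animal in 3 groups with tumours of different animals in the other 2.

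BET proteins, Brd2 among them, bind acetylated histones at enhancers and promoters and help RNA polymerase leave paused start sites, through the elongation kinase complex P-TEFb. JQ1 fills the acetyl-lysine pocket of these proteins. Myeloid cells use BET proteins for many inducible genes, and osteoclasts, the bone-resorbing giant cells that arise by fusion of monocytes and macrophages, are known to form poorly when BET proteins are blocked. In a bulk library of sorted cells, fewer cells of a type and less RNA in each cell cannot be told apart, and this holds for every gene below that marks a cell type.

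The marker that defines the fraction separated it from the other cells. Ptprc, which encodes CD45, had 38.8 and 53.4 FPKM in the vehicle libraries and 73.2 and 51.2 FPKM in the JQ1 libraries. In the CD45-negative cells of the same tumours, a table made separately, it had 1.25 and 2.65 FPKM with vehicle and 4.24 and 2.41 FPKM with JQ1. Summed over 12 pan-leukocyte genes, the levels were 2471 and 2707 FPKM with vehicle and 2629 and 2167 FPKM with JQ1, so the groups overlapped. Lyz2, the macrophage lysozyme, was abundant in both groups and had 8083 and 9474 FPKM with vehicle and 7765 and 9204 FPKM with JQ1 (difference −0.05 ± 0.25, adjusted p = 0.938), and the difference changed sign between settings. FPKM hold no read totals. Steps between the lowest values gave relative depths of 1.30 and 1.44 for vehicle and 0.862 and 1.28 for JQ1, where 1 is the geometric mean of the fraction. The 2 vehicle libraries correlated at 0.971 across genes and the 2 JQ1 libraries at 0.938, the lowest of the 5 groups. JQ1 replicate 1 stood apart on the second principal component, at −45.8 against 9.40 for JQ1 replicate 2 and −20.5 to 25.1 for the other libraries.

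limma, fitted to log2(FPKM + 1) of all 10 CD45-positive libraries, found 108 genes that differed between JQ1 and vehicle at a Benjamini-Hochberg adjusted p under 0.05, 1.04% of those tested. Of these, 63 were higher with JQ1 (0.609%) and 45 were lower (0.435%), and these genes alone are said to have risen or fallen. Differences are given as log2(FPKM + 1) ± standard error with n = 2 libraries a group, a scale that understates the change of low genes. The genes that fell included osteoclast and monocyte genes, genes of sterol and lipid metabolism and mitotic genes. The genes that rose included genes of B cells, T cells and blood vessels. Among genes named below, Cyp2s1, Oscar, Mst1r, Alox15 and Rufy4 reached 1 FPKM only in the vehicle libraries. Irf4 and Ikzf3 reached it only in the JQ1 libraries. They entered the comparison through the group where they were high, so their calls are not independent of the filter. Both JQ1 libraries were above both vehicle libraries for 2313 genes (22.4%) and below them for 2758 (26.7%), so groups that do not overlap were common. All 63 genes that rose and all 45 that fell were among these. A difference large against the spread within groups leaves little room for overlap, so this adds no support of its own. The median difference over all genes was −0.0041. The calls rested on few libraries. No gene passed the test when either vehicle library was left out, 2 passed without JQ1 replicate 1 (Plvap and Cyp2s1), and the same 2 passed with relative depth as a covariate, a fit in which all 108 kept their direction.

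**Figure D1:**
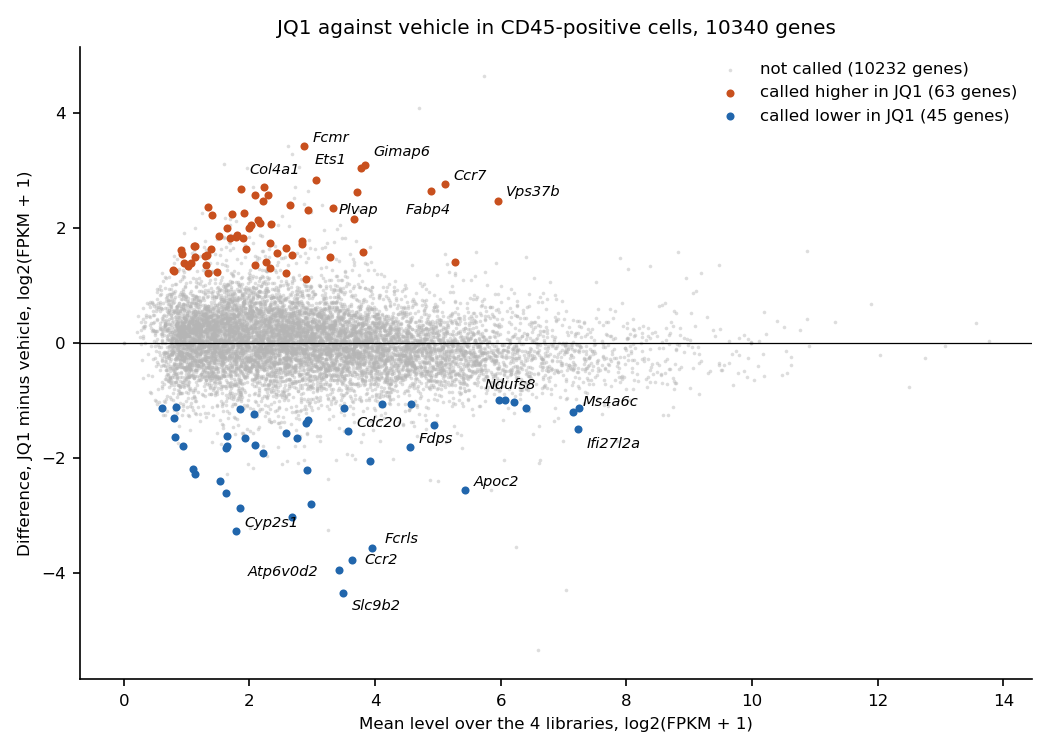
Each point is 1 of the 10340 genes tested. The horizontal axis is its mean level over the 2 vehicle and 2 JQ1 libraries in log2(FPKM + 1), and the vertical axis the difference, JQ1 minus vehicle, on the same scale. Orange points mark the 63 genes that rose and blue points the 45 that fell. Slc9b2, Atp6v0d2, Ccr2 and Fcrls lie lowest among the called genes and Fcmr and Gimap6 highest.

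Genes known from osteoclasts, many of which tumour macrophages also express, held the largest falls. Slc9b2, a sodium and proton exchanger that appears as osteoclasts mature, had 54.9 and 45.4 FPKM with vehicle and 0.228 and 4.04 FPKM with JQ1. It fell by 4.36 ± 0.76 (adjusted p = 0.037), and JQ1 replicate 1 was the lower of the 2 treated libraries. Atp6v0d2, a proton pump subunit that osteoclasts need to fuse, had 47.3 and 36.2 FPKM with vehicle and 1.7 and 1.8 FPKM with JQ1. It fell by 3.95 ± 0.54 (adjusted p = 0.0193), with the JQ1 libraries close together. Ocstamp, another fusion protein of osteoclasts, went from 23.9 and 16.4 FPKM to 2.43 and 1.6 FPKM (fell by 2.80 ± 0.46, adjusted p = 0.0332). Oscar, an immunoglobulin-like collagen receptor of osteoclasts, had 4.35 and 2.93 FPKM with vehicle and was listed at 0 in both JQ1 libraries (adjusted p = 0.00778). The groups did not overlap for any of these 4 genes, as held for all 45 genes that fell. Slc9b2 is on none of the lists used here.

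The enzymes that osteoclasts secrete onto bone were abundant with vehicle and lower in both JQ1 libraries, but did not pass the test, and the JQ1 libraries differed widely. Ctsk, the collagen-degrading cathepsin K, had 799 and 472 FPKM with vehicle and 3.13 and 54.2 FPKM with JQ1 (difference −5.35 ± 1.24, adjusted p = 0.0793). Acp5, the tartrate-resistant phosphatase, had 753 and 455 FPKM with vehicle and 12.2 and 66 FPKM with JQ1 (difference −4.30 ± 1.01, adjusted p = 0.0797). Mmp9, a gelatinase that osteoclasts share with neutrophils, had 319 and 210.5 FPKM with vehicle and 4.63 and 85.9 FPKM with JQ1 (difference −3.56 ± 1.31, adjusted p = 0.183). In each case JQ1 replicate 1 was lowest and replicate 2 lay between it and vehicle. Dcstamp, the fusion receptor related to Ocstamp, had 10.3 and 7.22 FPKM with vehicle and 2.17 and 0.91 FPKM with JQ1 (difference −1.97 ± 0.41, adjusted p = 0.0607). The pattern did not extend to Ctsb, the general lysosomal enzyme cathepsin B, which had 866 and 1051 FPKM with vehicle and 740.4 and 1345 FPKM with JQ1 (difference 0.06 ± 0.30, adjusted p = 0.932). Its groups overlapped. Of the 24 genes on a list of osteoclast and lysosomal enzymes 23 were tested, 3 fell, none rose, and the median difference was −0.68. Over all genes tested 0.435% fell and the median was −0.0041.

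Among monocyte and macrophage genes a few members fell far, and most stood slightly lower. Ccr2, the receptor that brings inflammatory monocytes out of the marrow into tissue, had 39.5 and 50.5 FPKM with vehicle and 3.49 and 1.5 FPKM with JQ1. It fell by 3.77 ± 0.56 (adjusted p = 0.0245), and both treated libraries lay far below both controls. Fcrls, a scavenger receptor-like protein of macrophages and microglia, went from 42.6 and 63.4 FPKM to 2.8 and 4.32 FPKM (fell by 3.56 ± 0.37, adjusted p = 0.00976). Ms4a6c and Ms4a6b, membrane proteins of the MS4A family in myeloid cells that were chosen after their values were seen, fell from high levels. Ms4a6c had 254 and 181 FPKM with vehicle and 90.7 and 93.2 FPKM with JQ1 (fell by 1.21 ± 0.20, adjusted p = 0.0336). Ms4a6b had 129.9 and 119 FPKM with vehicle and 54.9 and 57.5 FPKM with JQ1 (fell by 1.13 ± 0.17, adjusted p = 0.0245). Their family member Ms4a7 had 166 and 214 FPKM with vehicle and 64.2 and 89.8 FPKM with JQ1 and did not pass the test (difference −1.30 ± 0.25, adjusted p = 0.0513). Csf1r, the receptor of the macrophage growth factor and a defining marker, had 296 and 406 FPKM with vehicle and 233 and 241 FPKM with JQ1 (difference −0.55 ± 0.25, adjusted p = 0.262). All 24 genes on the list of monocytes and macrophages were tested. Ccr2 fell, none rose, 21 were below 0 and the median was −0.56, where 0.435% of all genes tested fell.

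Promoters are shown for 3 of these genes, an osteoclast receptor and the pair of monocyte and macrophage genes, because PU.1, a transcription factor that sets the myeloid lineage, binds a core written GAGGAA. Each run covers 250 bases before to 50 bases after the annotated start, 5′ to 3′ on the gene's strand, from RefSeq on GRCm38.p6. The letters GAGGAA, or TTCCTC for a match on the other strand, stand in capitals. Oscar is on the minus strand at chr7:3616108-3616407, Fcrls on the minus strand at chr3:87263475-87263774 and Ccr2 on the plus strand at chr9:124101933-124102232.
Oscar: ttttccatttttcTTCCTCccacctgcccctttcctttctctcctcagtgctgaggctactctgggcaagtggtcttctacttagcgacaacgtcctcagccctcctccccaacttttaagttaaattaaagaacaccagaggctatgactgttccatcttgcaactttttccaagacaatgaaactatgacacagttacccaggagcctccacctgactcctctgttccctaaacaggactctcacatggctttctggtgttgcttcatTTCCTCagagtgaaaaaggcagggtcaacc
Fcrls: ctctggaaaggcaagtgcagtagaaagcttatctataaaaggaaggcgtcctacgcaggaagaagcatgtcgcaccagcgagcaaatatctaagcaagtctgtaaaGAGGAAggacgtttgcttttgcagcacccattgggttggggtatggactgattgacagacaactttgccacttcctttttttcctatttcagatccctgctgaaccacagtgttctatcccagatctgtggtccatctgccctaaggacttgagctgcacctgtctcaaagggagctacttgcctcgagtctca
Ccr2: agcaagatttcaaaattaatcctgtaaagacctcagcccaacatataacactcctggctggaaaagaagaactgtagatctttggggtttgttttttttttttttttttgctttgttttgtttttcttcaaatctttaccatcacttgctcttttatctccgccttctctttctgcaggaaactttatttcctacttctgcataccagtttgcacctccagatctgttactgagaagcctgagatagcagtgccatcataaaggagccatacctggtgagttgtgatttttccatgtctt
The Oscar window held 2 matches, that of Fcrls 1 and that of Ccr2 none. Of 19 genes that fell and that the naming rule picks, 13 had a promoter in the table and 4 held a match, those of Arl11 and Cd59a besides Oscar and Fcrls. The same letters were in 28.3% of all 32851 promoters listed, a share much like 4 of 13. A match is only a run of letters, and its absence says nothing of the factor.

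Further receptors and secreted or signalling proteins were among the genes that fell. Of these Tnfsf13, Cd59a, Olfml3 and Arl11 follow from the naming rule, and Mst1r, Cd109 and Ifi27l2a were chosen after their values were seen. Mst1r, the receptor for macrophage-stimulating protein, had 2.55 and 2.64 FPKM with vehicle and 0 and 0.0775 FPKM with JQ1 (fell by 1.79 ± 0.19, adjusted p = 0.00976). Tnfsf13, the B cell survival factor APRIL, had 8.49 and 7.59 FPKM with vehicle and 0.92 and 1.96 FPKM with JQ1 (fell by 1.92 ± 0.32, adjusted p = 0.0336). Cd59a, which guards cells against the complement attack complex, had 4.82 and 4.83 FPKM with vehicle and 0.299 and 1.16 FPKM with JQ1 (fell by 1.80 ± 0.27, adjusted p = 0.0253). Olfml3, a secreted protein with 39.6 and 32.8 FPKM in the CD45-negative cells of the vehicle tumours, had 28.8 and 31 FPKM with vehicle and 8.6 and 4.81 FPKM with JQ1 (fell by 2.05 ± 0.34, adjusted p = 0.0336). Arl11, a small GTPase of macrophages, had 9.53 and 12.8 FPKM with vehicle and 3.22 and 2.46 FPKM with JQ1 (fell by 1.66 ± 0.30, adjusted p = 0.0416). The JQ1 libraries lay below the vehicle libraries for each of these 5 genes. Cd109 fell by 1.66 ± 0.27 (adjusted p = 0.0307) and Ifi27l2a, an interferon-induced gene, by 1.50 ± 0.28 (adjusted p = 0.0441), from 242 and 262 FPKM to 88.7 and 87.8 FPKM. No member of the 30-gene list of the type I interferon response passed the test, and its median was −0.33 (−0.10 in JQ1 replicate 1 and −0.72 in replicate 2).

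Several genes of lipid and sterol metabolism were among those that fell. No list of lipid or eicosanoid genes was used, and Cyp2s1, Bdh2, Alox15, Ptgs1, Nsdhl and Tmem97 were chosen after their values were seen. Cyp2s1, a cytochrome P450 that acts on lipids, had the smallest adjusted p of all genes tested. Its levels were 9.97 and 9.52 FPKM with vehicle and 0.0386 and 0.181 FPKM with JQ1 (fell by 3.28 ± 0.21, adjusted p = 0.000815), close to 0 in both treated libraries. Only the vehicle libraries reached 1 FPKM, so Cyp2s1 passed the filter through them alone. Apoc2, the cofactor of lipoprotein lipase, had 106 and 103 FPKM with vehicle and 18.3 and 15.3 FPKM with JQ1 (fell by 2.57 ± 0.36, adjusted p = 0.0206). Bdh2, a hydroxybutyrate dehydrogenase, had 9.19 and 8.28 FPKM with vehicle and 0.403 and 0.271 FPKM with JQ1 (fell by 2.86 ± 0.28, adjusted p = 0.00778). For both genes the treated libraries lay close together. Alox15, the lipoxygenase of alternatively activated macrophages, had 3.78 and 11.1 FPKM with vehicle and 0.547 and 0 FPKM with JQ1 (fell by 2.61 ± 0.39, adjusted p = 0.0253), and the vehicle libraries differed more than those of the other genes here. Ptgs1, cyclooxygenase 1, fell by 1.34 ± 0.25 (adjusted p = 0.042), from 12 and 10.3 FPKM to 3.23 and 4.43 FPKM.

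In the sterol pathway Fdps, which makes farnesyl diphosphate, had 45.9 and 40.6 FPKM with vehicle and 9.42 and 14 FPKM with JQ1. It fell by 1.82 ± 0.22 (adjusted p = 0.0156). Nsdhl, a later enzyme of cholesterol synthesis, had 5.82 and 5.14 FPKM with vehicle and 1.75 and 1.7 FPKM with JQ1 (fell by 1.25 ± 0.21, adjusted p = 0.0362). Tmem97, a sterol-regulated membrane protein, had 15.6 and 16.1 FPKM with vehicle and 5.89 and 7.6 FPKM with JQ1 (fell by 1.13 ± 0.21, adjusted p = 0.0441). The calls did not extend to the whole pathway. Among 18 tested genes of cholesterol synthesis and efflux, a list without Nsdhl and Tmem97, only Fdps fell, beside 0.435% of all genes. Of the 18, 13 were below 0 and the median was −0.33 (−0.44 and −0.08 by JQ1 library). Idi1, the enzyme just before Fdps, had 7.64 and 6.83 FPKM with vehicle and 1.3 and 3.32 FPKM with JQ1 (difference −1.38 ± 0.39, adjusted p = 0.114). Abcg1, which exports cholesterol, had 2 and 3.14 FPKM with vehicle and 11.4 and 7.01 FPKM with JQ1 (difference 1.50 ± 0.32, adjusted p = 0.0661).

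Mitotic genes were lower throughout. Cdc20, the activator of the anaphase ubiquitin ligase, had 19.1 and 19.4 FPKM with vehicle and 4.96 and 7.26 FPKM with JQ1 (fell by 1.53 ± 0.26, adjusted p = 0.0341). Pbk, a mitotic kinase, had 10.1 and 8.64 FPKM with vehicle and 2.68 and 2.31 FPKM with JQ1 (fell by 1.57 ± 0.27, adjusted p = 0.0364). Dlgap5, a spindle protein, had 4.6 and 4.19 FPKM with vehicle and 1.29 and 1.58 FPKM with JQ1 (fell by 1.15 ± 0.21, adjusted p = 0.042). The vehicle libraries lay close together for each. Dlgap5 and the next gene were chosen after their values were seen. Stmn1, a microtubule destabiliser abundant in dividing cells, had 88.5 and 86.5 FPKM with vehicle and 42.3 and 44.8 FPKM with JQ1 (fell by 0.99 ± 0.17, adjusted p = 0.0336). Of 22 tested G2/M and mitosis genes all 22 were below 0, Cdc20 passed the test, and the median was −0.95, beside −0.0041 over all genes. The groups did not overlap for 21 of the 22, all lower with JQ1. Among all genes tested 26.7% lay lower without overlap and 0.435% fell. Birc5, the mitotic protein survivin, had 38.7 and 45.8 FPKM with vehicle and 21.4 and 13.5 FPKM with JQ1 (difference −1.26 ± 0.28, adjusted p = 0.0722) and Mki67, the proliferation marker Ki-67, had 3.37 and 3.65 FPKM with vehicle and 3.16 and 2.07 FPKM with JQ1 (difference −0.33 ± 0.31, adjusted p = 0.592). For 22 DNA replication genes the median was −0.27 and none passed.

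Genes of the mitochondrial respiratory chain, which makes ATP from the oxidation of nutrients, were slightly lower in both treated libraries. Of 81 tested members 80 were below 0 and the median was −0.57 (range −1.17 to 0.47). Their summed level was 10858 and 9717 FPKM with vehicle and 6869 and 7129 FPKM with JQ1. Ndufs8, a subunit of complex I, was the only member to pass, with 104 and 105 FPKM with vehicle and 51.7 and 50.0 FPKM with JQ1 (fell by 1.03 ± 0.17, adjusted p = 0.0341). Respiratory chain transcripts are short, and their differences with the trend over length removed are given with transcript length. Cytosolic ribosomal proteins, equally short, had a median of −0.04 over 81 genes. Rpl26, the only one to pass the test (adjusted p = 0.0258), had 2.85 and 5.15 FPKM with vehicle and 0.000673 and 0.000461 FPKM with JQ1 (fell by 2.28 ± 0.34). Ribosomal protein genes have many processed copies that share reads, so that value is uncertain.

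Haemoglobin transcripts, which come from red blood cells, were lower in both treated libraries and just missed the threshold. Hba-a1 had 16.9 and 7.54 FPKM with vehicle and 0.0908 and 0.616 FPKM with JQ1 (difference −3.22 ± 0.63, adjusted p = 0.0559). Hbb-b1 had 12.5 and 5.99 FPKM with vehicle and 0.49 and 0.129 FPKM with JQ1 (difference −2.91 ± 0.60, adjusted p = 0.0598). Copies of these genes share reads. The summed level of 8 erythroid genes was 38.1 and 17.2 FPKM with vehicle and 0.915 and 1.04 FPKM with JQ1. Neutrophil genes had a median of −0.72 over 22 tested genes, with no call (−1.21 and −0.28 by JQ1 library). Retnlg, a neutrophil granule protein, had 40.7 and 19.9 FPKM with vehicle and 1.26 and 3.24 FPKM with JQ1 (difference −3.25 ± 0.73, adjusted p = 0.0749). The summed level of the neutrophil list was 1357 and 915 FPKM with vehicle and 285 and 1253 FPKM with JQ1, so that only JQ1 replicate 1 was low, and S100a8, an abundant protein of these cells, had 369 and 238 FPKM with vehicle and 107 and 355 FPKM with JQ1 (difference −0.60 ± 0.65, adjusted p = 0.645).

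**Figure D2:**
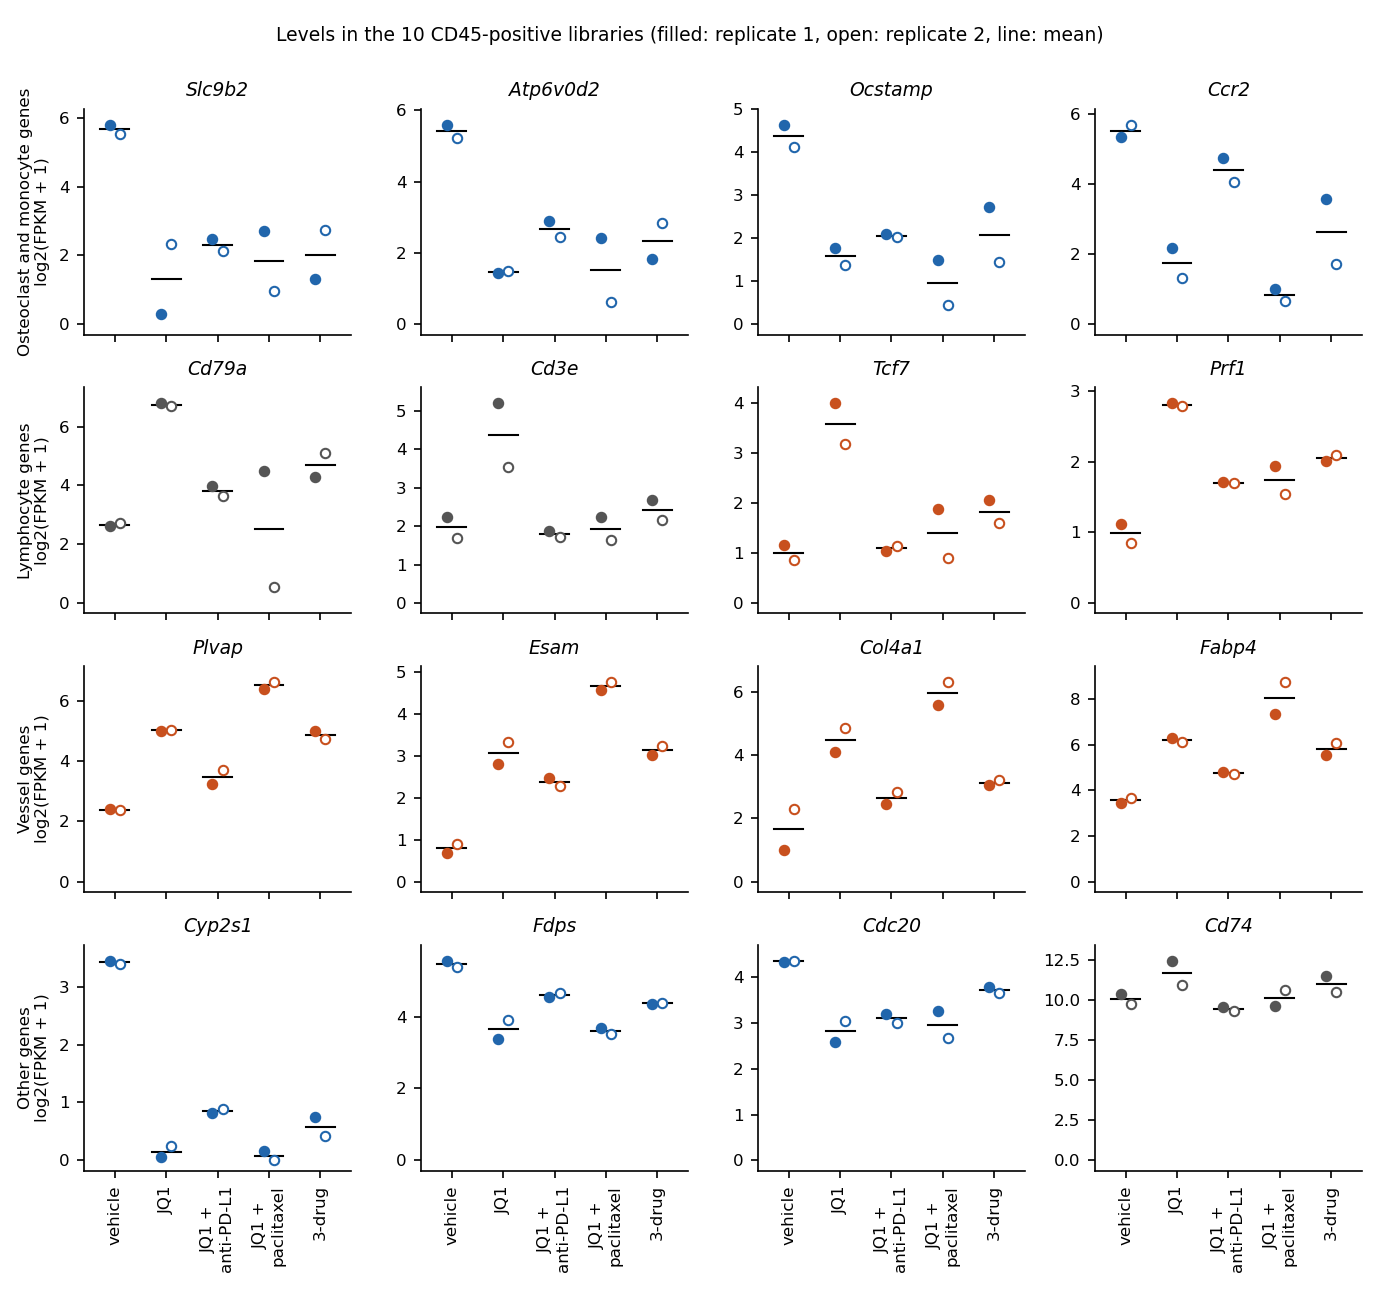
The vertical axes give the level in log2(FPKM + 1) in each of the 10 CD45-positive libraries for 16 genes, and the horizontal positions the 5 groups. Filled points are replicate 1, open points replicate 2, and the lines are the means. Blue genes fell and orange genes rose with JQ1 against vehicle, and grey genes did not pass the test. Plvap had 4.28 and 4.26 FPKM with vehicle and 31.5 and 31.7 FPKM with JQ1, and Cd3e shows a wide gap between the JQ1 libraries.

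Of the other genes that fell, 3 follow from the naming rule and stand outside these groups. Mt3, a metallothionein that binds zinc and copper, had 23 and 12.8 FPKM with vehicle and 0.495 and 2.34 FPKM with JQ1 (fell by 3.03 ± 0.49, adjusted p = 0.0307). Fam109a, an endosomal adaptor, had 18.5 and 12.5 FPKM with vehicle and 1.7 and 3.58 FPKM with JQ1 (fell by 2.21 ± 0.32, adjusted p = 0.0245). Tnni2, a troponin of fast skeletal muscle, had 6.56 and 7.24 FPKM with vehicle and 1.67 and 0.998 FPKM with JQ1 (fell by 1.77 ± 0.29, adjusted p = 0.0307). Both treated libraries were low for each. Chosen after their values were seen, Rufy4, which promotes autophagy in dendritic cells, had 7.28 and 4.37 FPKM with vehicle and 0.133 and 0.386 FPKM with JQ1 (fell by 2.41 ± 0.25, adjusted p = 0.00904), and Pkn3, a protein kinase that osteoclasts use in resorption, had 5.08 and 4.58 FPKM with vehicle and 0.616 and 0.645 FPKM with JQ1 (fell by 1.84 ± 0.25, adjusted p = 0.0184). Atp6v1g1, another proton pump subunit, had 249 and 199.9 FPKM with vehicle and 97.8 and 106 FPKM with JQ1 (fell by 1.13 ± 0.17, adjusted p = 0.0245).

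B cell genes were among those that rose. Fcmr, the Fc receptor for IgM on B cells, had 1.04 and 1.45 FPKM with vehicle and 28.4 and 18.7 FPKM with JQ1. It rose by 3.43 ± 0.59 (adjusted p = 0.0352), the most of all genes that passed. Tnfrsf13c, the receptor for the B cell survival factor BAFF, had 0.867 and 0.619 FPKM with vehicle and 10.4 and 8.43 FPKM with JQ1 (rose by 2.57 ± 0.45, adjusted p = 0.0377). Cxcr5, which guides B cells into follicles, had 0.36 and 0.556 FPKM with vehicle and 9.97 and 6.78 FPKM with JQ1 (rose by 2.67 ± 0.41, adjusted p = 0.027). For these receptors both treated libraries were well above both controls. Fcer2a, the IgE receptor CD23, had 0.242 and 0.212 FPKM with vehicle and 5.06 and 4.38 FPKM with JQ1 (rose by 2.22 ± 0.34, adjusted p = 0.0258). Spib, Ikzf3 and Gimap1 are on no list and were chosen after their values were seen. Among transcription factors of B cells, Ebf1 had 0.225 and 0.203 FPKM with vehicle and 3 and 2.81 FPKM with JQ1 (rose by 1.69 ± 0.23, adjusted p = 0.0191) and Spib had 0.505 and 0.52 FPKM with vehicle and 5.96 and 3.28 FPKM with JQ1 (rose by 1.85 ± 0.35, adjusted p = 0.0459). Irf4 (rose by 1.49 ± 0.23, adjusted p = 0.0268) and Ikzf3 (rose by 1.62 ± 0.26, adjusted p = 0.0305) serve B and T lymphocytes.

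The defining B cell markers Cd79a and Ms4a1 varied more over the 10 libraries, and Cd79a stood higher still. Cd79a, a signalling chain of the B cell receptor, had 5.13 and 5.55 FPKM with vehicle and 109.7 and 102 FPKM with JQ1 (difference 4.08 ± 0.97, adjusted p = 0.0814). Ms4a1, which encodes CD20, had 0.233 and 1.14 FPKM with vehicle and 7.4 and 12.3 FPKM with JQ1 (difference 2.70 ± 0.73, adjusted p = 0.104). Neither passed the test, although their groups did not overlap. Over 15 tested genes of B and plasma cells 2 rose (Fcer2a and Ebf1), beside 0.609% of all genes. In that list 12 were above 0 and the median was 1.69. The list summed to 102 and 112 FPKM with vehicle and to 268 and 245 FPKM with JQ1. With vehicle most of the sum came from Xbp1 and Sdc1, which other cells also express, and with JQ1 the largest shares came from Cd79a and Xbp1. In these 4 libraries 2 to 4 of its 20 members were listed at 0.

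T and natural killer cell genes rose too. Tcf7, a transcription factor of naive and memory T cells, had 1.22 and 0.808 FPKM with vehicle and 14.8 and 8.05 FPKM with JQ1 (rose by 2.58 ± 0.38, adjusted p = 0.0245). Ets1, a factor of T, B and endothelial cells, had 4.79 and 2.93 FPKM with vehicle and 56.7 and 25.6 FPKM with JQ1 (rose by 3.04 ± 0.39, adjusted p = 0.0175). Gimap6, one of a family of lymphocyte GTPases, had 5.17 and 2.86 FPKM with vehicle and 61.4 and 26.8 FPKM with JQ1 (rose by 3.09 ± 0.42, adjusted p = 0.0184), and its relatives Gimap4 and Gimap1 rose by 2.39 ± 0.41 (adjusted p = 0.0341) and 1.88 ± 0.35 (adjusted p = 0.0441). For Tcf7, Ets1 and Gimap6 JQ1 replicate 1 was the higher of the treated libraries. Ccr7, which brings lymphocytes and dendritic cells to lymph nodes, had 16 and 9.43 FPKM with vehicle and 145 and 54.7 FPKM with JQ1 (rose by 2.76 ± 0.49, adjusted p = 0.0401). Thy1, found on T cells and on fibroblasts, had 0.2 and 0.0722 FPKM with vehicle and 2.11 and 1.33 FPKM with JQ1 (rose by 1.25 ± 0.22, adjusted p = 0.0396).

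Cytotoxic genes showed 3 rises. Prf1, the pore protein perforin, had 1.17 and 0.811 FPKM with vehicle and 6.11 and 5.96 FPKM with JQ1 (rose by 1.83 ± 0.23, adjusted p = 0.0175). Ctsw, a protease of natural killer and CD8 T cells, had 2.61 and 1.82 FPKM with vehicle and 6.22 and 7.47 FPKM with JQ1 (rose by 1.29 ± 0.23, adjusted p = 0.0416). Il2rb, a receptor chain for interleukins 2 and 15, had 2.86 and 4.15 FPKM with vehicle and 28.1 and 16.8 FPKM with JQ1 (rose by 2.35 ± 0.33, adjusted p = 0.0205). The treated libraries lay close together for Prf1 and Ctsw. Of 18 tested genes of cytotoxic and natural killer cells these 3 rose, beside 0.609% of all genes. All 18 were above 0 and the median was 1.16. The list summed to 139 and 51.7 FPKM with vehicle and to 296 and 147 FPKM with JQ1.

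The T cell receptor genes themselves differed widely between the 2 JQ1 tumours. Cd3e, a chain of the receptor complex, had 3.7 and 2.23 FPKM with vehicle and 35.4 and 10.6 FPKM with JQ1 (difference 2.40 ± 0.49, adjusted p = 0.0595). Cd4 had 0.279 and 0.388 FPKM with vehicle and 6.79 and 1.63 FPKM with JQ1 (difference 1.76 ± 0.53, adjusted p = 0.126) and Cd8a had 0.983 and 0.174 FPKM with vehicle and 2.15 and 0.885 FPKM with JQ1 (difference 0.67 ± 0.32, adjusted p = 0.277), with groups that overlapped for Cd8a. Lef1, the partner factor of Tcf7, had 0.618 and 0.132 FPKM with vehicle and 23.2 and 4.17 FPKM with JQ1 (difference 3.05 ± 0.75, adjusted p = 0.0868). Of 22 tested T cell genes 3 rose (Tcf7, Ccr7 and Thy1), beside 0.609% of all genes. Of these 22, 21 were above 0 and the median was 1.80. It was 2.74 in JQ1 replicate 1 and 0.98 in replicate 2, each against the vehicle mean. The summed level of the list was 67.3 and 48.9 FPKM with vehicle and 503 and 155 FPKM with JQ1, with 0 or 1 of its 25 genes listed at 0. For the B cell list the same medians were 2.06 and 1.65, and for the cytotoxic list 1.15 and 1.11.

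Further lymphocyte genes outside the lists rose as well. Of these Ptprcap, P2ry10 and Vps37b follow from the naming rule, and the others were chosen after their values were seen. Ltb, the lymphotoxin chain that organises lymphoid tissue, had 5.59 and 4.43 FPKM with vehicle and 34.7 and 19 FPKM with JQ1 (rose by 2.16 ± 0.33, adjusted p = 0.027). Ptprcap, a protein bound to CD45 in lymphocytes, had 2.75 and 2.15 FPKM with vehicle and 15.4 and 16.6 FPKM with JQ1 (rose by 2.31 ± 0.41, adjusted p = 0.0401). P2ry10, a lysophospholipid receptor of lymphocytes, had 0.828 and 0.843 FPKM with vehicle and 12 and 10.1 FPKM with JQ1 (rose by 2.71 ± 0.32, adjusted p = 0.0153). All 3 were several times higher in each treated library than in each control. Foxo1, a factor that keeps lymphocytes quiescent, rose by 1.71 ± 0.27 (adjusted p = 0.0307). Dtx1 (rose by 2.37 ± 0.32, adjusted p = 0.0184) and Cytip (rose by 1.58 ± 0.20, adjusted p = 0.0175) are further genes of lymphocytes. Vps37b, a sorting protein of endosomes, was the most abundant gene to rise, with 17.8 and 35.7 FPKM with vehicle and 204 and 103 FPKM with JQ1 (rose by 2.47 ± 0.41, adjusted p = 0.0332).

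MHC class II genes, which present antigen on B cells, dendritic cells and macrophages, were mostly higher. Ciita, the master activator of the class II genes, had 0.606 and 0.326 FPKM with vehicle and 3.15 and 3.12 FPKM with JQ1 (rose by 1.50 ± 0.21, adjusted p = 0.0199). It was the only one of 11 members to pass, where 0.609% of all genes rose. The list median was 1.47, with 10 members above 0 (2.09 and 0.83 by JQ1 library). The list summed to 4559 and 3260 FPKM with vehicle and to 11441.5 and 4470 FPKM with JQ1, so the sums overlapped. Cd74, the invariant chain, had 1357 and 863 FPKM with vehicle and 5607 and 1930.4 FPKM with JQ1 (difference 1.60 ± 0.55, adjusted p = 0.158). H2-Aa had 369 and 185 FPKM with vehicle and 1284 and 475 FPKM with JQ1 (difference 1.58 ± 0.53, adjusted p = 0.156). For these abundant genes replicate 1 was farther above vehicle than replicate 2. Genes induced by interferon gamma differed between the 2 treated tumours. All 19 tested members were above 0 with a median of 0.93 and no call, yet the median was 2.16 in JQ1 replicate 1 and −0.12 in replicate 2. Gbp4, a guanylate-binding protein, had 5.01 and 3.48 FPKM with vehicle and 49.6 and 4.87 FPKM with JQ1 (difference 1.73 ± 0.97, adjusted p = 0.364). Nos2, which makes nitric oxide in activated macrophages, had 8.65 and 2.9 FPKM with vehicle and 81.9 and 4.63 FPKM with JQ1 (difference 1.82 ± 1.40, adjusted p = 0.507), and Cd274, which encodes PD-L1, had 38.2 and 17.7 FPKM with vehicle and 104 and 22.8 FPKM with JQ1 (difference 0.88 ± 0.88, adjusted p = 0.616). Without JQ1 replicate 1 the differences of Nos2 and Cd274 were −0.12 and −0.19.

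Blood vessel genes rose evenly in both treated libraries. Plvap, the diaphragm protein of endothelial pores, had 4.28 and 4.26 FPKM with vehicle and 31.5 and 31.7 FPKM with JQ1 (rose by 2.63 ± 0.22, adjusted p = 0.00363). Esam, an adhesion molecule of endothelial junctions, had 0.595 and 0.872 FPKM with vehicle and 5.93 and 8.95 FPKM with JQ1 (rose by 2.26 ± 0.25, adjusted p = 0.0108). Pecam1, which encodes CD31 and is also found on leukocytes, had 1.1 and 1.96 FPKM with vehicle and 10.4 and 8.45 FPKM with JQ1 (rose by 2.06 ± 0.26, adjusted p = 0.0175). In these genes the 2 JQ1 tumours differed little. Emcn, a sialomucin of capillaries and veins, had 0.678 and 0.437 FPKM with vehicle and 2.73 and 3.25 FPKM with JQ1 (rose by 1.36 ± 0.23, adjusted p = 0.0357). Defining endothelial markers stayed low. Cdh5, which encodes VE-cadherin, had 0.264 and 0.283 FPKM with vehicle and 0.993 and 0.901 FPKM with JQ1 (difference 0.61 ± 0.28, adjusted p = 0.269) and Kdr, the main receptor for VEGF, had 0.43 and 1.15 FPKM with vehicle and 1.64 and 1.46 FPKM with JQ1 (difference 0.54 ± 0.26, adjusted p = 0.299).

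Of 11 tested endothelial genes 4 rose, beside 0.609% of all genes. All 11 were above 0 without overlap of the groups, beside 22.4% of all genes, and the median was 1.12. No member of the 12-gene list was listed at 0. The list summed to 9.41 and 13.9 FPKM with vehicle and to 65.7 and 65.9 FPKM with JQ1. In the CD45-negative cells of the same tumours it summed to 7.77 and 13.3 FPKM with vehicle and 26.0 and 18.6 FPKM with JQ1, in a table made separately. Whether endothelial cells carried over with the beads had a part in the vessel genes was not tested. Sums of fibroblast and of epithelial genes overlapped between the groups. Fibroblast and collagen genes summed to 284 and 392 FPKM with vehicle and 294 and 487 FPKM with JQ1, and epithelial and tumour cell genes to 387 and 371 FPKM with vehicle, with JQ1 replicate 1 below and replicate 2 (441 FPKM) above both.

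Genes of the vessel wall outside the list rose in the same libraries. Of these Col4a1, Col4a2 and Fabp4 follow from the naming rule, Timp3 and Serping1 from other lists, and Mcam, Egfl7 and Igfbp3 were chosen after their values were seen. Col4a1 and Col4a2 encode the collagen IV chains of basement membranes. Col4a1 had 1.01 and 3.91 FPKM with vehicle and 16.3 and 28 FPKM with JQ1 (rose by 2.83 ± 0.44, adjusted p = 0.027), and Col4a2 had 0.632 and 1.4 FPKM with vehicle and 8.34 and 11.8 FPKM with JQ1 (rose by 2.46 ± 0.30, adjusted p = 0.0175). Fabp4, a fatty acid carrier of capillary endothelium, adipocytes and some macrophages, had 9.92 and 11.9 FPKM with vehicle and 76.8 and 68.9 FPKM with JQ1 (rose by 2.64 ± 0.39, adjusted p = 0.0245). The controls were low for all 3. Mcam (from 0.416 and 0.708 FPKM to 4.38 and 6.21 FPKM, adjusted p = 0.0175) and Egfl7 (rose by 1.74 ± 0.31, adjusted p = 0.0397) mark endothelium and mural cells, Timp3 (rose by 1.84 ± 0.25, adjusted p = 0.0184) is a metalloproteinase inhibitor held in the matrix, and Igfbp3 (rose by 1.49 ± 0.26, adjusted p = 0.0397) a secreted carrier of insulin-like growth factors. Serping1, the inhibitor of complement C1, rose by 2.05 ± 0.37 (adjusted p = 0.042).

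The proteins that JQ1 binds, and genes known to report BET inhibition, were examined next. Brd2 had 28.2 and 47.3 FPKM with vehicle and 74.1 and 129 FPKM with JQ1 (difference 1.39 ± 0.47, adjusted p = 0.157). Hexim1, the inhibitor of P-TEFb that often rises under BET inhibitors, had 0.993 and 1.99 FPKM with vehicle and 2.84 and 5.75 FPKM with JQ1 (difference 1.06 ± 0.41, adjusted p = 0.197). Both were higher in both treated libraries without passing the test. Myc, a gene that BET inhibitors lower in many blood cancers, had 19.1 and 18.6 FPKM with vehicle and 10.0 and 14.4 FPKM with JQ1 (difference −0.61 ± 0.25, adjusted p = 0.216). Il7r, the receptor of interleukin 7, had 7.36 and 8.79 FPKM with vehicle and 13.9 and 1.76 FPKM with JQ1 (difference −0.50 ± 0.97, adjusted p = 0.814), and its groups overlapped. On a list of genes known to report BET inhibition 7 were tested, 3 were above 0 and 4 below. Only Ccr2 passed, where 0.435% of all genes fell. The median of that list was −0.02, with 0.37 in JQ1 replicate 1 and −0.28 in replicate 2. Of 9 tested genes of BET proteins and P-TEFb control 8 were above 0 with a median of 0.51. No histone gene of 58 passed the test, and their median was −0.10, which was −0.53 in JQ1 replicate 1 and 0.52 in replicate 2.

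Across all 46 lists 17 held a gene that passed and 29 held none. The 57 list members that the naming rule adds for their level alone, none of which passed, ranged from −3.22 to 1.47. Medians near 0 were found for inflammatory cytokines (0.04, 27 genes), chemokines (0.07, 30 genes) and ribosome biogenesis with MYC targets (0.08, 25 genes). By JQ1 library, replicate 1 first, these were 0.17 and −0.05, 0.07 and 0.11, and 0.21 and −0.16. MHC class I presentation (17 genes) had a median of 0.05 made of 0.60 in replicate 1 and −0.41 in replicate 2. C-type lectin receptors of myeloid cells had a median of −0.82 (12 genes), with −0.17 in replicate 1 and −1.49 in replicate 2. Fc receptors with their adaptors had −0.54 (11 genes; −0.49 and −0.75). Neither list held a call. Immediate early genes, which dissociation of tissue induces, had a median of 0.20 (18 genes), below 0 in replicate 1 (−0.17) and above 0 in replicate 2 (0.59).

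**Figure D3:**
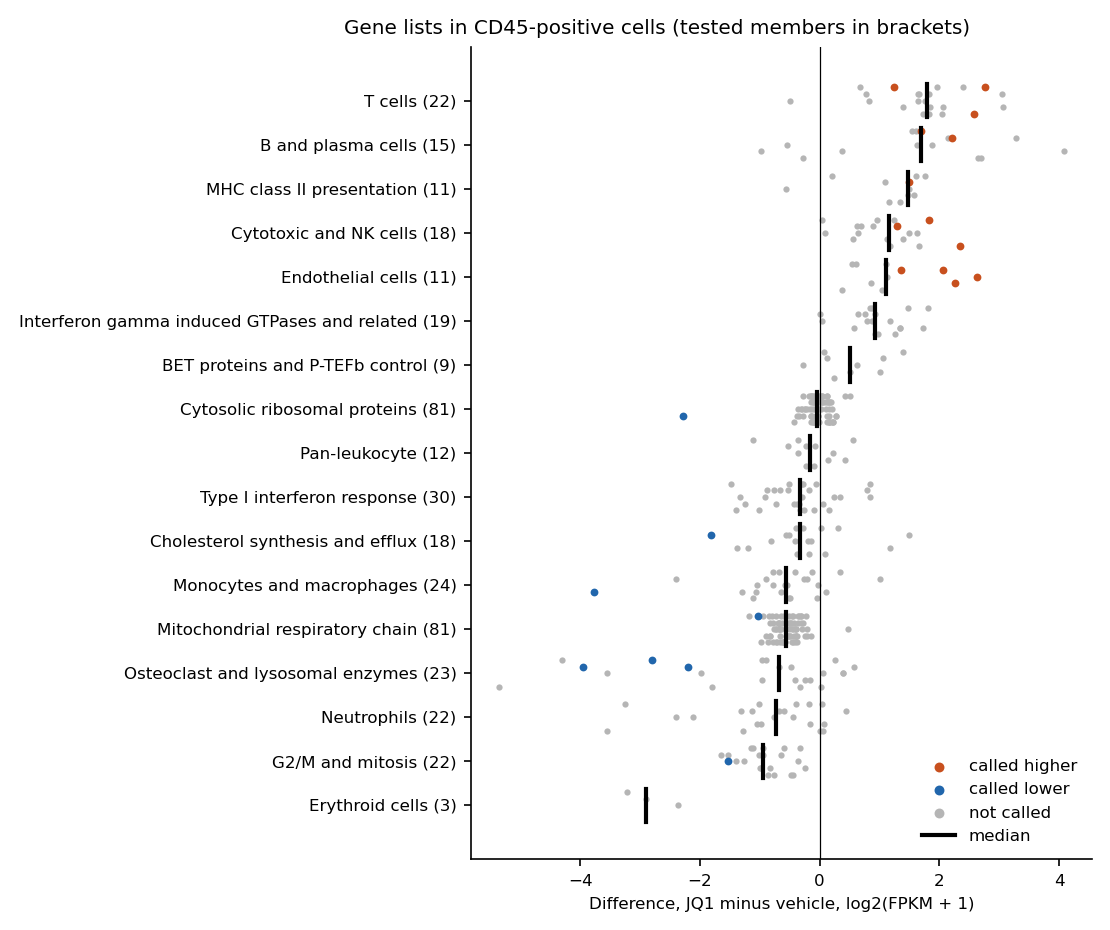
Each point is a tested member of a gene list, placed on the horizontal axis by its difference, JQ1 minus vehicle, in log2(FPKM + 1). Black bars are medians, orange points rose, blue points fell and grey points did not pass the test. Numbers in brackets are the tested members. The T cell list has the highest median (1.80) and the erythroid list the lowest (−2.91, 3 genes).

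The other 3 groups, which all had JQ1, give the context of these levels. Their comparisons with vehicle use the same vehicle libraries, so levels are set side by side here without a count of shared genes. For Atp6v0d2 the levels were 6.42 and 4.47 FPKM with anti-PD-L1 added, 4.4 and 0.554 FPKM with paclitaxel added and 2.54 and 6.13 FPKM in the 3-drug group. Ctsk had 77.3 and 44.1, 121 and 25.7 and 22.3 and 145 FPKM in the same order, and Cyp2s1 0.764 and 0.841, 0.11 and 0 and 0.678 and 0.332 FPKM. In all 6 libraries these 3 genes were below both vehicle libraries. Ccr2 had 25.8 and 15.6, 0.99 and 0.588 and 10.9 and 2.27 FPKM, so it was less low with anti-PD-L1 added than with JQ1 alone.

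Lymphocyte genes looked different. Cd79a had 14.7 and 11.5 FPKM with anti-PD-L1 added, 21.3 and 0.443 FPKM with paclitaxel added and 18.7 and 33 FPKM in the 3-drug group, all below its levels with JQ1 alone. Tcf7 had 1.05 and 1.21, 2.69 and 0.871 and 3.13 and 2.03 FPKM in the same order, and Gimap6 3.65 and 2.01, 11 and 7.58 and 15 and 13 FPKM. Vessel genes had another order. Plvap had 8.57 and 12.3, 84.5 and 98.4 and 31.5 and 25.7 FPKM, so the libraries with paclitaxel added were the highest of all 10. The endothelial list summed to 23.6 and 25.2, 161 and 197 and 60.7 and 48.5 FPKM, and the T cell list to 65 and 59.5, 70.6 and 33.1 and 165 and 67.9 FPKM.

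JQ1 alone was then tested against the mean of the other 3 JQ1 groups, a comparison without the vehicle libraries. limma called 0 of 10340 genes (0%), with 1202 at an unadjusted p under 0.05 and a smallest adjusted p of 0.0696. The count was 60 with a pseudocount of 5 and 4 without a filter on low values. Leaving out 1 library gave 22 and 6 calls without JQ1 with paclitaxel replicate 1 and 2, and 1 without 3-drug replicate 2. This comparison shares the JQ1 libraries with the first. Its difference was 2.33 ± 0.34 for Gimap6 (adjusted p = 0.0712), 2.15 ± 0.31 for Tcf7 (adjusted p = 0.0712) and 1.97 ± 0.27 for Il2rb (adjusted p = 0.0696). For the vessel gene Plvap it was 0.06 ± 0.18 (adjusted p = 0.938) and for Atp6v0d2 −0.72 ± 0.44 (adjusted p = 0.587).

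The CD45-negative cells of the same 4 tumours gave values of their own. Their table was made separately, and no test was run between the fractions. There limma called 1592 of 10780 genes (14.8%), of which 549 were higher (5.09%) and 1043 lower (9.68%). Relative depths there were 1.79 and 1.13 for vehicle and 0.554 and 0.653 for JQ1, so depth and treatment cannot be fully told apart. With relative depth as a covariate 310 genes were called, 64 higher and 246 lower. With quantile normalization 752 of 1571 calls were higher. Of the 45 genes that fell in CD45-positive cells 33 were tested, all 33 were below 0 and 16 also fell, 48.5% of those tested and 1.53% of the lower calls of that fraction. Of the 63 that rose 44 were tested, 34 were above 0 and 3 also rose (Timp3, Rapgef6 and Il6st), 6.82% of those tested and 0.546% of the higher calls. The 6.82% among the genes that rose is near the 5.09% of all genes that rose there. The 48.5% among the genes that fell is above the 9.68% of all genes that fell there. Both fractions come from the same tumours, so these shares are not a separate test of the first calls. Of these 4 tumours, only those of vehicle reached 1 FPKM for Slc9b2, Atp6v0d2 and Ccr2 in CD45-negative cells. The filter thus favoured a value below 0 for such genes.

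Apoc2 had 5.77 and 9.88 FPKM with vehicle and 0 and 0.681 FPKM with JQ1 in CD45-negative cells (difference −2.73 ± 0.29, adjusted p = 0.000341). Ccr2 had 2.52 and 3.55 and 0.133 and 0.188 FPKM (difference −1.79 ± 0.32, adjusted p = 0.00385), and Slc9b2 1.51 and 1.94 and 0.219 and 0.0619 FPKM (difference −1.26 ± 0.20, adjusted p = 0.00251). These monocyte and osteoclast transcripts were thus low outside the CD45-positive fraction in the controls and lower still with JQ1. Hba-a1 had 74.9 and 51.1 and 0.328 and 1.1 FPKM (difference −5.24 ± 1.02, adjusted p = 0.00657). Brd2 rose there, by 2.27 ± 0.33 with an adjusted p of 0.00152. Hexim1 rose as well (difference 1.20 ± 0.24, adjusted p of 0.0076). The T cell list had a median of 0.06 and the endothelial list one of 0.47 in CD45-negative cells.

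**Figure D4:**
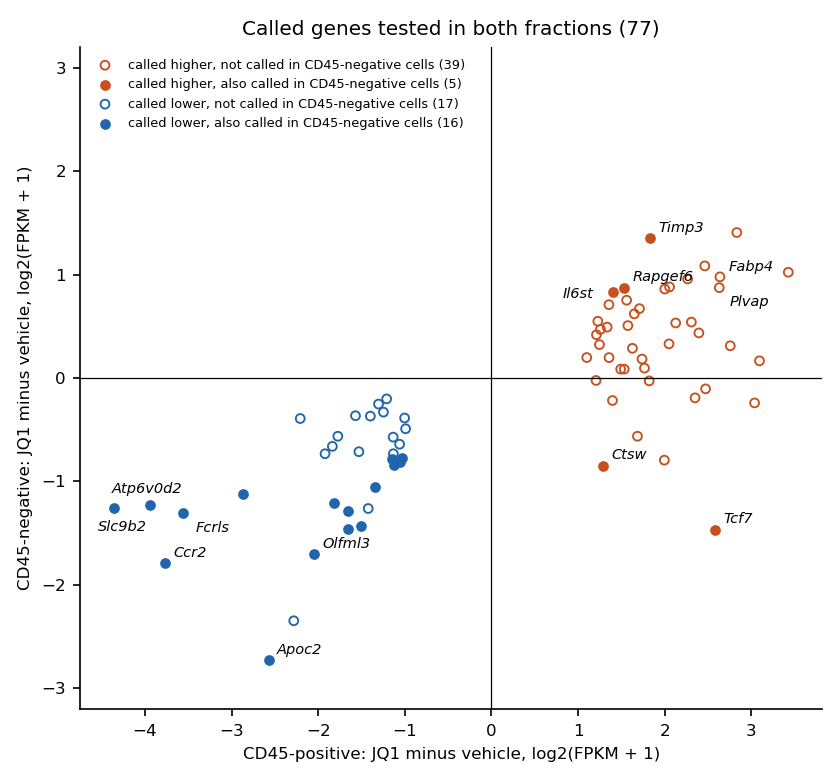
Each point is 1 of the 77 genes that passed the test in CD45-positive cells and were also tested in CD45-negative cells. The horizontal axis is the difference, JQ1 minus vehicle, in CD45-positive cells and the vertical axis the same in CD45-negative cells, both in log2(FPKM + 1). Filled points passed the test in both fractions. All 33 blue points lie below 0 on the vertical axis, and Tcf7 and Ctsw are filled orange points below 0.

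The differences moved with transcript length in both JQ1 libraries. Genes were put in 5 bins of equal size by their longest annotated transcript. From shortest to longest the median difference was −0.27, −0.12, −0.02, 0.11 and 0.29. It ran from −0.31 to 0.25 in JQ1 replicate 1 and from −0.25 to 0.32 in replicate 2. Between the 2 vehicle libraries, replicate 1 minus replicate 2, it ran from 0.10 in the shortest bin to −0.21 in the longest. Spearman's correlation between length and difference was 0.375 over 10282 genes of the same 4 libraries. The genes that rose had a median length of 3602 bases and those that fell 2168 bases, against 3161 over all genes with a length.

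Several genes that rose encode very large proteins outside the lists above, and were chosen after their values were seen. Sptbn1, a spectrin of the membrane skeleton with a transcript of 9107 bases, had 2.54 and 3.37 FPKM with vehicle and 8.08 and 8.15 FPKM with JQ1 (rose by 1.21 ± 0.22, adjusted p = 0.042). Srcap, the motor of a chromatin remodelling complex (10654 bases), had 0.676 and 0.976 FPKM with vehicle and 3.58 and 2.97 FPKM with JQ1 (rose by 1.23 ± 0.21, adjusted p = 0.0367). Notch2, a receptor that marginal zone B cells need (10500 bases), had 1.73 and 2.68 FPKM with vehicle and 7.13 and 9.75 FPKM with JQ1 (rose by 1.56 ± 0.26, adjusted p = 0.0332). The groups lay apart for each. Supt6, an elongation factor that travels with RNA polymerase II (6488 bases), had 4.08 and 4.15 FPKM with vehicle and 9.63 and 10.3 FPKM with JQ1 (rose by 1.10 ± 0.20, adjusted p = 0.0416).

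With the trend over length removed from each library, an alternative chosen after seeing the data, 105 genes passed, 62 higher and 43 lower, and 80 of them were among the 108 (48 higher and 32 lower). List medians were then −0.26 for the respiratory chain, 0.27 for ribosomal proteins, −0.98 for mitosis, 1.84 for T cells, 1.83 for B and plasma cells, 1.01 for endothelial cells and −0.51 for osteoclast and lysosomal enzymes. The median of the respiratory chain was thus smaller in size (−0.26 in place of −0.57) and that of ribosomal proteins changed sign, while the T cell, B cell, vessel and mitotic medians moved little. For BET proteins and P-TEFb control the median was 0.20 in place of 0.51, and for histone genes 0.22 in place of −0.10. Genes that report BET inhibition had 0.43 in place of −0.02. Whether length or RNA quality had a part in any single gene was not tested.

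**Figure D5:**
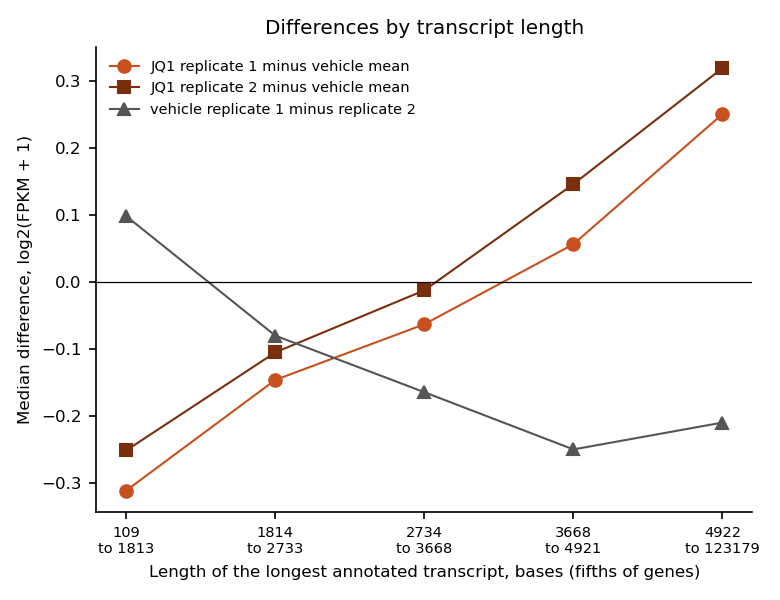
The horizontal axis gives 5 bins of genes by the length of their longest annotated transcript in bases, and the vertical axis the median difference in log2(FPKM + 1) within each bin. The orange and brown lines are the 2 JQ1 libraries against the vehicle mean, and the grey line is vehicle replicate 1 minus replicate 2. The JQ1 lines climb from −0.31 to 0.25 and from −0.25 to 0.32, and the vehicle line falls from 0.10 to −0.21.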

How the data were processed

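Tumours were dissociated, split with beads against CD45 and sequenced from low-input SMARTer libraries, per the labels' protocols and design text. The authors aligned reads with STAR 2.5.1b to mm9, per the submitters' processing notes. The tool behind the gene values is not stated in what was used here. The deposited CD45-positive and CD45-negative tables hold FPKM: this unit was inferred from decimal values and column sums, although the labels speak of counts. FPKM keep no read totals, so a count test was not possible. The steps between low values gave relative depth only, with 75.4% of low values within 0.05 steps of a whole multiple (9.94% after random factors), and absolute precision is unknown.

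Genes that reached 1 FPKM in 2 or more libraries were kept, and limma 3.58.1 with a mean-variance trend (R 4.3.3) was fitted to log2(FPKM + 1) of all 5 groups, with 5 residual degrees of freedom and 8.94 after moderation. The trend lets genes of like level share their spread. Tests were two-sided, with a Benjamini-Hochberg adjusted p threshold of 0.05 over all genes tested. The labels do not state which libraries came from the same animal. The fit was also run on simulated data with noise drawn independently for each library. Effects shared by tumours of 1 animal were therefore not covered. Gene lists were described by counts and medians.

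Of 24353 listed symbols 24265 were matched to mouse gene names. Transcript lengths came from GENCODE vM21. Promoters came from RefSeq (GRCm38.p6), which is not the build of the tables, so no coordinates were joined to values. The comparison, gene lists and tests were chosen with earlier results of these data known. Named genes were the 15 highest and 15 lowest called differences with a mean log2 level of at least 2 and no overlap, up to 4 called members of each list, 8 fixed genes (Ptprc, Hexim1, Brd2, Myc, Cd274, Ccr2, Il7r and 1 that is not reported here), and members or defining markers of a list. Every other called gene named was chosen after its values were seen. List members that the rule adds for level alone are given as a range. Alternatives changed the pseudocount, filter, scaling, moderation, covariates and libraries. Chromatin accessibility was not analysed here. Figures used Python 3.11.15, pandas 2.3.3 and matplotlib 3.10.9.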

Additional observations from a re-analysis of the deposited data

Results flagged for a closer look

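Tcf7 and Ctsw moved in opposite directions in the fractions of the same tumours. Tcf7 differed by 2.58 in CD45-positive cells and by −1.46 in CD45-negative cells, where it had 7.97 and 7.92 FPKM with vehicle and 2.1 and 2.39 FPKM with JQ1 (adjusted p = 0.00103, limma). Ctsw differed by 1.29 in CD45-positive cells and by −0.85 in CD45-negative cells, with 1.73 and 2.24 FPKM and 0.951 and 0.403 FPKM (adjusted p = 0.0391, limma). A gene was flagged if it passed the test in both fractions with opposite signs and its groups did not overlap in either. The lack of overlap was thus set by that choice. The difference between the fractions was not tested, because their tables were made separately.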

How the results depend on the processing

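The count of 108 genes (63 higher, 45 lower) rested on the spread between few libraries. It was 68 with a pseudocount of 0.1 (23 lower), 40 with a minimum of 5 FPKM (23 higher, 17 lower), 15 with only the groups compared (9 and 6), 39 with tumour side as a covariate (23 and 16), 2 with relative depth as a covariate (1 and 1) and 0 when each mouse code gave 1 averaged value. Without a filter on low values it was again 108, but 49 higher and 59 lower, and 59 of these were among the first 108. Leaving out 1 library gave 0 to 121 calls, 0 to 87 of them higher and 0 to 51 lower. The lowest counts were 0 without either vehicle library, 2 without JQ1 replicate 1 and 13 without either JQ1 with anti-PD-L1 library, and in these fits a lone library is assumed to vary like the other groups. Each of the 108 genes kept its direction under every alternative in which it was tested. Much of this was fixed in advance. The groups did not overlap for any of the 108, so leaving out a library could not change a direction. Changes of moderation left the difference itself as it was. JQ1 alone against the other JQ1 groups had 0 calls, 60 with a pseudocount of 5, 4 without a filter on low values and 0 to 22 leaving out 1 library. The CD45-negative count of 1592 became 310 with relative depth as a covariate, 21 when each mouse code gave 1 averaged value and 423 to 1744 leaving out 1 library. Over 144 genes (the 108 and 36 others) and 23 alternatives 2002 values kept direction and side of the threshold, 1200 dropped below it, 27 passed it and 11 changed sign. The sign changes were Lyz2 (0.37 with quantile normalization, 0.21 with the length trend removed) and Ctsb (−0.10 with the length trend removed), and, leaving out 1 library, Lyz2 (−0.17 to 0.073), Ctsb (−0.37 to 0.50), Cd274 (−0.19 to 1.95), Il7r (−1.71 to 0.72), Nos2 (−0.12 to 3.76) and S100a8 (−1.45 to 0.26), with both ends set by leaving out 1 or the other JQ1 library. The cause of these changes was not tested. No paired analysis was possible because the labels give no replicate numbers, and the side of the tumour was used as a covariate instead. Absolute depth is unknown, so the counting error of low genes could not be estimated.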
